A study of Homo sapiens with 4 samples.

Results

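The expression of each gene in SUM159 cells under palbociclib plus indisulam was compared with the level that would follow if the effects of the single drugs multiplied. SUM159 is a mesenchymal cell line derived from a triple-negative breast cancer (TNBC). One RNA sequencing library was available for each of 4 conditions, which were untreated cells, palbociclib, indisulam and the combination, and they form a 2 by 2 layout. The labels give 0.5 µM palbociclib, 2 µM indisulam and 10 days of treatment, whereas the text on the series gives 2 µM palbociclib, 3 µM indisulam, 16 h and technical duplicates, so the dose and the duration are uncertain, and it is not known whether duplicates were merged. All 4 libraries come from the same line in the same medium with insulin and hydrocortisone, and the untreated library is the only control.

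The departure from additivity is how far the combination stood from untreated on the log2 scale, less the corresponding distances of palbociclib and of indisulam. It equals the palbociclib ratio measured in the presence of indisulam (combination against indisulam) minus the palbociclib ratio measured without it, and equally the indisulam ratio with palbociclib minus the one without it. A gene lies above the sum where the combination library holds more of its reads than the single drugs predict, and below the sum where it holds fewer. Genes with a mean of 20 CPM (reads of the gene relative to all gene reads of the library, on the usual scale) or more over the 4 libraries were described, which were 8037 of the 60279 genes listed and of the 29056 with at least 1 read. The least expressed of them had a mean of 20.01 CPM, and 7912 of the 8037 were protein coding.

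Palbociclib inhibits CDK4 and CDK6, the kinases that phosphorylate the retinoblastoma protein early in the cell cycle. Once this protein is left unphosphorylated, it and its relatives repress the E2F targets needed for DNA replication and, through the DREAM complex, the genes needed for mitosis. Indisulam is a sulfonamide that acts as a molecular glue between DCAF15, a receptor of a ubiquitin ligase, and RBM39, a splicing factor, so that RBM39 protein is degraded and splicing errors follow. The study also tested it as an indirect inhibitor of CDK2, the kinase that can phosphorylate the retinoblastoma protein when CDK4 and CDK6 are blocked. A log2 departure of 0 is what drugs with independent, multiplying effects on a transcript would give.

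Between 12555908 and 16712174 reads per library fell in genes. With 1 library per condition no difference had a replicate check and no p-value was computed. Counting error was the only error that could be attached to a single gene, and it is given as a 95% interval that covers no variation between cultures. The line markers VIM (2643 to 4598 CPM), CD44 (706 to 883 CPM) and EGFR (95.5 to 115 CPM) were present in every library, ESR1, PGR, EPCAM and CDH1 stayed under 2 CPM, and ERBB2 stood at 110 to 143 CPM. CD3E, which marks T lymphocytes, had 0 reads in all 4 libraries, which allows up to 3 reads, while PTPRC (11.1 to 17.5 CPM) and PECAM1 (15.2 to 40.9 CPM) did not stand at 0.

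Most genes lay close to the sum of the single drugs. The median departure of the 8037 genes was 0.01 on the log2 scale, with quartiles at -0.25 and 0.26, and 85.4% of the genes were within 1.5-fold of the sum. The robust standard deviation (the median absolute deviation rescaled) was 0.38, against a median counting error of 0.11 per gene, so counting reads accounts for a small share of the spread. The rest holds differences between cultures and libraries together with any interaction of the drugs, which cannot be told apart here. The spread was 0.39 at 20 to 50 CPM and 0.44 at 300 CPM or more, whereas the 6232 genes between 1 and 20 CPM, which are not described further, had a spread of 0.66.

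A gene was called when its departure was at least 2-fold and its counting interval excluded 0. By this rule 118 genes (1.47%) were above the sum and 144 genes (1.79%) below it, 3.26% in either direction. The balance of these sides depended on the scale. When the combination was set against the sum of the changes in CPM rather than in log2 CPM, 286 genes were above and 123 below, and 152 genes were called in the same direction on both scales. The plot of departure against expression shows the called genes at every level of expression.

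**Figure D1:**
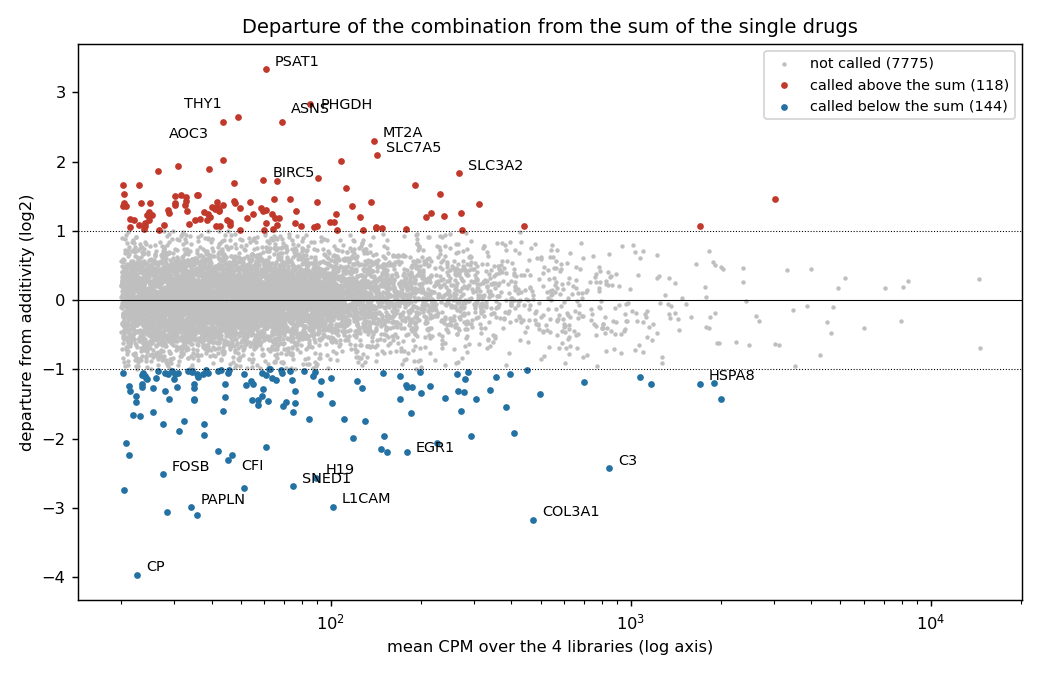
Departure from additivity (log2, y axis) of 8037 genes against their mean CPM over the 4 libraries (log axis), 1 point per gene. Red points are the 118 genes called above the sum of the single drugs, blue points the 144 called below it, grey points the rest, and the dotted lines mark 2-fold. PSAT1 is the highest point and CP the lowest.

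Several forms of response lay behind the called genes. By the same rule over all 8037 genes, palbociclib was called higher than untreated in 2.25% and lower in 2.64%, indisulam in 4.17% and 3.3%, and the combination in 7.05% and 7.24%. The combination was called higher than palbociclib in 4.91% and lower in 4.26%, and higher than indisulam in 1.22% and lower in 1.64%. Of the 118 genes above the sum, 18 were called lower with each single drug, 37 were called with palbociclib but not with indisulam, 19 with indisulam but not with palbociclib, and 41 with neither. In 53 of the 118, palbociclib alone was called lower than untreated while no palbociclib difference was called in the presence of indisulam, and the like for indisulam held in 25. Of the 144 genes below the sum, 35 were called higher with each single drug, 25 with palbociclib only, 26 with indisulam only and 51 with neither. Palbociclib was called higher alone and not called with indisulam in 57 of these. Each single-drug library enters the departure with a minus sign, so an error in 1 of them moves its own ratio and the departure in opposite directions, and these counts are a description. The combination stood within 1.5-fold of the untreated library in 54 of the 118 genes above the sum and in 42 of the 144 below it, against 64.8% of all genes.

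A departure with a different form is a combination library that stands apart from all 3 others. The combination was called higher than each of the other libraries in 31 genes (0.386% of all genes), of which 11 were also called above the sum, and lower than each in 43 genes (0.535%), of which 19 were also called below it. The 11 included PSG4, NCEH1, IFIT3, CLDN1, STC1, PAPSS2, PLAT, SLC3A2, MMP1 and SLC7A5. The 19 included the immediate early genes FOS, FOSB, EGR1 and ZFP36, the noncoding RNA H19, the receptor NOTCH3 and the collagen-binding integrin subunit ITGA10.

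The genes furthest above the sum included several that make and import amino acids. PSAT1 (chr9:78297125-78330093, GRCh38) encodes the aminotransferase of serine synthesis, and it stood at 106 CPM untreated, 20.4 CPM with palbociclib, 39.5 CPM with indisulam and 77.0 CPM with the combination. The sum of the single drugs gives 7.61 CPM for PSAT1, and its departure was 3.33 (3.10 to 3.57). Both single-drug libraries were thus well under the untreated one, and the combination stood nearer to untreated than either. PHGDH (chr1:119648411-119744218), which catalyses the first step of the same pathway, stood at 152, 20.6, 85.4 and 83.1 CPM in the same order, a departure of 2.83 (2.62 to 3.05). ASNS, asparagine synthetase, stood at 140, 21.9, 58.7 and 54.6 CPM, a departure of 2.57 (2.34 to 2.80). For PHGDH and ASNS the combination matched indisulam alone, with palbociclib ratios in the presence of indisulam of -0.04 and -0.10, against -2.87 and -2.68 in its absence.

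The subunits of a large neutral amino acid transporter took another form. SLC7A5, the transporting subunit, stood at 124 CPM untreated, 59.0 CPM with palbociclib, 128 CPM with indisulam and 260 CPM with the combination, a departure of 2.09 (1.95 to 2.24). SLC3A2, its heavy chain, stood at 121, 83.1, 252 and 616 CPM, a departure of 1.83 (1.71 to 1.96). Both genes were highest in the combination library and lowest in the palbociclib library.

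These 5 genes are targets of ATF4, the transcription factor of the integrated stress response, and belong to a list of 28 genes of the endoplasmic reticulum (ER) stress and ATF4 response. Of the 28, 7 (25%, against 1.47% of all genes) were called above the sum and none below it. The list median was 0.45 (quartiles 0.20 and 0.86), with 24 of 28 above the median of all genes. The other called members were DDIT3, the stress factor CHOP (27.6, 12.6, 27.8 and 30.9 CPM, a departure of 1.28), and TRIB3, a pseudokinase induced by ATF4 (67.1, 30.7, 53.1 and 49.0 CPM, a departure of 1.01). Palbociclib alone was called lower in 8 of the 28 genes (2.64% of all genes) and palbociclib in the presence of indisulam in none (1.64% of all genes). The 20 aminoacyl-tRNA synthetases, which charge tRNAs with amino acids, had a median departure of 0.35, with 17 of 20 above the median of all genes and GARS1 called (281, 146, 182 and 218 CPM, a departure of 1.21). A list of 20 amino acid synthesis and transport genes, drawn up after the departures had been seen, had a median of 0.65 with 6 members called above, 5 of which are also in the ATF4 list.

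Of all lists, mitotic genes had the most members called above the sum by number, though not by share. Of 48 kinases, kinesins, cyclin B and spindle genes, 12 (25%, against 1.47% of all genes) were called above and none below. The share was also 25% in the ER stress and ATF4 list and in the serpins, and 30% in the amino acid list. Of the 48, 39 were above the median of all genes, with a median of 0.53 (quartiles 0.15 and 1.01). Palbociclib alone was called lower than untreated in 23 of them (2.64% of all genes), with a median log2 ratio of -0.98. In the presence of indisulam it was called lower in 3 (1.64% of all genes), with a median of -0.49. The indisulam ratio of the same genes had a median of 0.48 without palbociclib and of 1.06 with it, and 27 of the 48 were called higher in the combination than in palbociclib alone (4.91% of all genes). The log2 ratio of the combination to untreated had a median of 0.05.

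BIRC5, which encodes the mitotic regulator and apoptosis inhibitor survivin, stood at 82.6 CPM untreated, 19.1 CPM with palbociclib, 77.1 CPM with indisulam and 59.2 CPM with the combination, a departure of 1.73 (1.49 to 1.97). PTTG1, securin, which restrains the separation of sister chromatids, stood at 78.2, 16.0, 77.5 and 42.6 CPM, a departure of 1.42. PLK1, the polo-like kinase of mitotic entry, stood at 53.8, 12.5, 59.2 and 35.2 CPM, a departure of 1.35. In all 3 genes the palbociclib library was the lowest and the combination lay between palbociclib and untreated. The other called members were KIF4A (1.30), TOP2A (1.25), HMMR (1.25), KIF20A (1.19), CDC20 (1.19), DLGAP5 (1.18), KIF2C (1.16), CCNA2 (1.09) and FOXM1 (1.07), where the value is the log2 departure. MKI67, the proliferation marker, stood at 126, 44.5, 246 and 129 CPM, and its departure of 0.57 (0.41 to 0.73) was under 2-fold.

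Many promoters of mitotic genes carry a cell cycle homology region (CHR), the element TTTGAA to which the DREAM complex binds. It was looked for on both strands of the 250 bases before the start of each gene in the RefSeq promoter table (GRCh38.p14), which matched 6649 of the 8037 genes by symbol. The element was found in 23 of 40 mitotic promoters (57.5%), against 8.24% of the 6649 and 13.6% of all 27305 promoters of the table. Of the mitotic genes called above the sum 10 were matched, and 6 held it (60%), a share close to that of all 40 mitotic promoters. Promoters of the called kinases, kinesins and spindle genes PLK1, TOP2A, HMMR and KIF4A are printed around the element, on the strand of the gene, to show how near to the start of transcription it can lie. The capitals mark TTTGAA or its reverse complement TTCAAA.
PLK1, chr16:23678820-23678888, plus strand: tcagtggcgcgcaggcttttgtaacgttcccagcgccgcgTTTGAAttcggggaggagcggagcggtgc
TOP2A, chr17:40418002-40418087, minus strand: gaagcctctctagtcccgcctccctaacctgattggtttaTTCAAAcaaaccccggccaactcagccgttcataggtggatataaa
HMMR, chr5:163460570-163460631, plus strand: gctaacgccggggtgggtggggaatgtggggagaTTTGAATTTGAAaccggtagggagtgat
KIF4A, chrX:70290030-70290103, plus strand: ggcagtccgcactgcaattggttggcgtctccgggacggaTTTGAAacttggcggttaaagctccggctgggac
The element began 29 bases before the start of PLK1, 34 bases before that of KIF4A and 151 bases before that of TOP2A. TOP2A and HMMR each held 2 matches in the 250 bases, those of HMMR in a row and the farther one of TOP2A not wholly inside the printed stretch. The pentamer CCAAT, bound by the factor NF-Y, was found in 72.5% of the 40 mitotic promoters against 35.1% of the 6649. It was as common in the ER stress and ATF4 list (72% of 25) and in the cholesterol list (75% of 16). Among all matched genes called above the sum the share with TTTGAA was 20.5% of 88, and among those called below it 9% of 100. The ATF4 element TGATGCAA was found in 4% of 25 promoters of the ER stress and ATF4 list against 0.391% of the 6649, which is 1 promoter, and in 0 of 88 promoters of genes called above the sum and 3% of those called below it. The AP-1 element TGANTCA was found in 6.82% of the genes called above the sum, 4% of those called below it and 3.74% of the 6649, and the sterol element TCACNCCAC in none of the called genes and 0.812% of the 6649. A match is a description of the letters and not of binding.

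Genes of DNA replication, which E2F controls, did not take the same position as the mitotic genes. The 36 licensing and fork genes had a median departure of -0.06 (quartiles -0.33 and 0.21), close to the median of all genes. Palbociclib alone did not lower the list as a whole. Its median log2 ratio there was 0.16, with 4 genes called higher and 4 lower (2.25% and 2.64% of all genes). In the presence of indisulam the median was 0.11, with none called higher and 1 lower (1.22% and 1.64% of all genes). Of the 30 matched promoters, 36.7% held one of the E2F elements TTTCCCGC or TTTGGCGC, against 3.23% of all 6649. In this list TK1, thymidine kinase, was called above the sum (57.0, 22.0, 31.2 and 34.4 CPM, a departure of 1.51), as was RPA3 (64.4, 29.7, 36.2 and 35.2 CPM, a departure of 1.07). These 2 are 5.56% of the list, against 1.47% of all genes, and none was called below. MCM5 and MCM2, subunits of the replicative helicase, were at the other end, and neither was called. The 20 cyclins, CDKs, RB family members and CDK inhibitors had a median of -0.06 and none was called.

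Of the drug targets, CDK6 and RBM39 lay within the quartiles of all genes (-0.25 and 0.26), and CDK4 lay below them. CDK6 stood at 28.2 CPM untreated, 48.1 CPM with palbociclib, 60.9 CPM with indisulam and 107 CPM with the combination, where the sum gives 104 CPM, a departure of 0.04 (-0.18 to 0.27). CCND1, cyclin D1, stood at 171, 449, 218 and 530 CPM, a departure of -0.11 (-0.20 to -0.02). These transcripts were higher with each drug, and the combination was close to the product of the single ratios. CDK4 had a departure of -0.46 (-0.60 to -0.32), CDK2 of 0.15, RB1 of -0.04, CDKN1A of 0.20 and RBM39 of 0.23. CCNH, the cyclin of the CDK-activating kinase, stood at 44.4, 45.1, 24.5 and 19.1 CPM, with the indisulam and combination libraries both lower, and a departure of -0.38 (-0.66 to -0.11). CCNE1 and DCAF15 were under 20 CPM. The 74 spliceosome and SR protein genes had a median of -0.03 with none called.

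Of the 51 gene lists described, collagens lay furthest below the sum. Of 21 collagen genes 20 were below the median of all genes, and the median was -0.80 (quartiles -1.06 and -0.50). Of the 21, 7 (33.3%, against 1.79% of all genes) were called below and none above. Palbociclib alone was called higher in 8 of them (2.25% of all genes) with a median log2 ratio of 0.82, and in the presence of indisulam in none (1.22% of all genes), with a median of -0.10. COL3A1 (chr2:188974373-189012746), which encodes fibrillar collagen III, stood at 168 CPM untreated, 1339 CPM with palbociclib, 202 CPM with indisulam and 179 CPM with the combination, a departure of -3.17 (-3.26 to -3.07). The palbociclib library stood alone, and the combination was close to untreated. COL1A1, the main chain of collagen I, stood at 1795, 2807, 2148 and 1246 CPM, a departure of -1.43, and here the combination was the lowest of the 4. COL5A3 stood at 6.13, 27.2, 26.6 and 24.9 CPM, a departure of -2.23, so that each drug alone and the combination were at nearly the same level. The other called collagens were COL8A1 (-1.21), COL1A2 (-1.12), COL4A5 (-1.06) and COL18A1 (-1.04), each given as the log2 departure.

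Other genes of the matrix and of its receptors lay in both directions. POSTN, the matrix protein periostin, stood at 33.1, 178, 185 and 218 CPM, a departure of -2.19, and ITGA11, a collagen receptor subunit, stood at 63.4, 249, 147 and 129 CPM, a departure of -2.15. ITGA6, a laminin receptor subunit, stood at 97.5, 56.4, 70.2 and 138 CPM, a departure of 1.76, and the collagen prolyl hydroxylase subunit P4HA1 stood at 130, 83.4, 80.0 and 122 CPM, a departure of 1.25. Of 22 integrin and laminin subunits 2 were called above and 4 below (1.47% and 1.79% of all genes), with a median of -0.05. Of 26 genes of collagen modification and crosslinking 3 were called above and 4 below, with a median of 0.14. POSTN and ITGA11 were higher than untreated with each single drug, and ITGA6 and P4HA1 were lower.

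The 3 fibroblast markers examined beside these results did not move together. COL1A1 was highest with palbociclib, as COL3A1 was. DCN, decorin, stood at 233, 551, 1681 and 1841 CPM and LUM, lumican, at 0.478, 5.12, 26.9 and 27.2 CPM, each highest in the libraries with indisulam. The endothelial markers PECAM1 (15.2, 40.9, 17.5 and 20.4 CPM) and CDH5 (5, 23, 0 and 0 reads) were highest with palbociclib, as COL3A1 was. The part of these markers in the collagen result was not tested. In bulk RNA, fewer cells of a kind and less RNA per cell cannot be told apart.

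Complement genes were examined as a list after C3 and CFI had been seen among the lowest departures. C3, the central complement component, stood at 301 CPM untreated, 1433 CPM with palbociclib, 883 CPM with indisulam and 780 CPM with the combination, a departure of -2.43 (-2.49 to -2.37). C1S, a protease of the classical pathway, stood at 98, 362, 237 and 210 CPM, a departure of -2.06, and its partner C1R at 174, 376, 401 and 223 CPM, a departure of -1.95. In these 3 genes each single drug was above untreated and the combination was no higher than either. CFI (26.9, 108, 28.4 and 24.0 CPM, a departure of -2.24), a protease that restrains complement, was higher with palbociclib alone and near untreated in the other libraries. Of 9 complement genes 5 were called below (1.79% of all genes) and none above. CP, the copper-carrying plasma protein ceruloplasmin (chr3:149162410-149221829), had the lowest departure of all 8037 genes, at -3.96 (-4.45 to -3.48), and stood at 3.82, 51.8, 18.6 and 15.9 CPM.

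**Figure D2:**
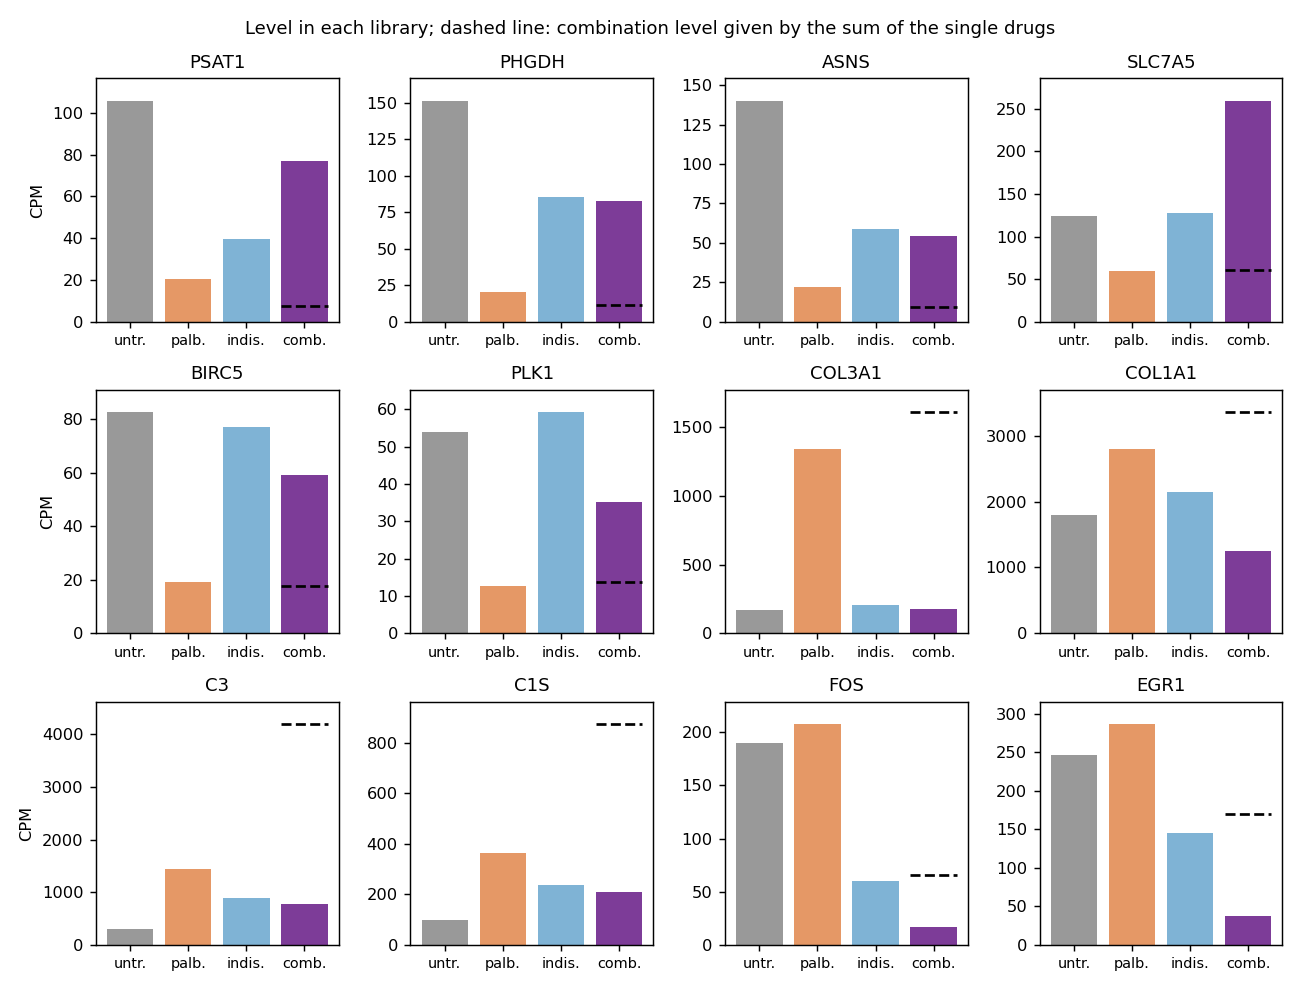
CPM of 12 genes in the untreated, palbociclib, indisulam and combination libraries (bars, linear axes that start at 0, 1 library per bar), with the combination level that the sum of the single drugs gives as a dashed line. In the upper 6 panels (PSAT1, PHGDH, ASNS, SLC7A5, BIRC5, PLK1) the combination bar stands above the line, and in the lower 6 (COL3A1, COL1A1, C3, C1S, FOS, EGR1) below it.

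FOS, FOSB and EGR1, immediate early genes that are transcribed within minutes of growth factor or stress signals, were below the sum, with the combination library far under the others. FOS stood at 190 CPM untreated, 208 CPM with palbociclib, 59.7 CPM with indisulam and 16.4 CPM with the combination, a departure of -1.99. EGR1 stood at 247, 287, 146 and 37.0 CPM, a departure of -2.19 (-2.34 to -2.04), and FOSB at 29.5, 64.1, 11.8 and 4.46 CPM, a departure of -2.51 (-2.95 to -2.08). Palbociclib alone was level with or above untreated in these genes, and in the presence of indisulam the palbociclib ratio was -1.86 for FOS, -1.97 for EGR1 and -1.40 for FOSB. ZFP36, an RNA-binding protein that hastens the decay of cytokine mRNAs, stood at 115, 109, 69.9 and 32.5 CPM, a departure of -1.03. The wider list of 22 AP-1 and C/EBP factors and immediate early genes had a median of -0.19. FOS, FOSB and EGR1 were the only ones called (13.6% below, against 1.79% of all genes). Of the 22, 17 were below the median of all genes and 5 above it, with quartiles of -0.51 and -0.02. JUNB (-0.86) and IER2 (-0.55) lay below the sum, JUN (-0.01) near it and KLF4 (0.72) above it, none of them called. SPRY4 and DUSP6, feedback inhibitors of the MAP kinase pathway, were also called below, as the only 2 called of 19 feedback genes.

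Members of other signalling lists lay below the sum as well. Of 20 NF-kB subunits and feedback inhibitors 17 were below the median of all genes, with a median of -0.55, but TRAF1 was the only member called (13.1, 55.7, 51.3 and 96.9 CPM, a departure of -1.17), and on the linear scale TRAF1 turned to 0.04. The combination was the highest library for TRAF1, so it lay below the sum while above every other library. Of the insulin-like growth factor binding proteins, IGFBP3 (7.81, 46.2, 27.2 and 43.1 CPM, a departure of -1.89), IGFBP5 (1.19, 24.3, 36.3 and 81.3 CPM, -3.10) and IGFBP7 (67.0, 112, 312 and 224 CPM, -1.22) were called below. They were 3 of 10 genes in the list of these proteins and their receptors (30%, against 1.79% of all genes), and none was called above. The interval of IGFBP5, which was low in the untreated library, ran from -3.83 to -2.38. IGFBP4 (0.48) and IGFBP6 (0.88) lay above the sum and were not called. On the linear scale IGFBP5 turned to 0.45. L1CAM, a neural adhesion molecule (5.49, 113, 80.6 and 207 CPM, -2.98), and GPNMB, a lysosomal membrane glycoprotein (3.11, 69.1, 30.9 and 103 CPM, -2.71), turned likewise, to 0.14 and 0.09. In IGFBP5, L1CAM and GPNMB the combination was the highest of the 4 libraries, and the multiplied single ratios gave a level several times higher still.

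The departures of the senescence-associated secretory list, taken from a list that the study itself used, had no common direction. If the list was applied to these libraries, it is no independent evidence of one. Its 14 expressed members had a median departure of 0.00 with quartiles of -0.89 and 0.49. Of the 14, 1 was called above (7.14%, against 1.47% of all genes) and 4 below (28.6%, against 1.79%). The ratios to untreated were less mixed. With palbociclib the median log2 ratio was 0.34, with 2 called higher and 1 lower. With indisulam it was 1.51, with 8 called higher (4.17% of all genes) and none lower. With the combination it was 1.51, with 9 called higher (7.05% of all genes) and none lower. CXCL8, the neutrophil chemokine interleukin 8, stood at 9.0, 17.2, 396 and 368 CPM, a departure of -1.03, and VEGFA, the angiogenic factor, at 164, 217, 646 and 397 CPM, a departure of -1.11. MMP1, interstitial collagenase, stood at 1.67, 1.26, 41.8 and 130 CPM, a departure of 2.02 (1.12 to 2.92). For these 3 genes the indisulam libraries were the high ones, and the combination was level with, lower than or higher than indisulam alone, in that order. CSF2, a myeloid growth factor, had 1, 47, 274 and 888 reads, and with 1 read untreated its departure of -2.74 had an interval from -4.30 to -1.18 and turned to 1.62 on the linear scale. IGFBP7 was the remaining member called below.

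Lipid synthesis genes lay above the sum with few calls. Of 21 cholesterol synthesis and uptake genes 18 were above the median of all genes, with a median of 0.30 and none called. Palbociclib was called lower in 6 of them alone (2.64% of all genes) and in 4 in the presence of indisulam (1.64% of all genes). Of 18 fatty acid synthesis and desaturation genes the median was 0.43. FASN, fatty acid synthase, stood at 982 CPM untreated, 285 CPM with palbociclib, 303 CPM with indisulam and 185 CPM with the combination, a departure of 1.08. Both drugs alone were lower than untreated and the combination was lower still, but less than the product of the single ratios, which gives 87.8 CPM. Of 6 genes of lipid droplets and their control, the droplet protein CIDEC was called above the sum (101, 12.1, 6.04 and 1.88 CPM, a departure of 1.40) and the droplet coat protein PLIN4 below it (51.8, 26.4, 9.51 and 1.81 CPM, a departure of -1.38). Both were lowest in the combination library. The glycolysis and hypoxia list had a median of 0.45 over 30 genes, with P4HA1 and P4HA2 called above and VEGFA below.

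Of the serpins, inhibitors of serine proteases, 7 of 8 were above the median of all genes. SERPINB5, maspin, stood at 41.9, 27.7, 35.2 and 62.3 CPM, a departure of 1.42, lowest with palbociclib and highest with the combination. PLAT, the tissue plasminogen activator, stood at 170, 156, 164 and 434 CPM, a departure of 1.53, with the combination alone high.

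**Figure D3:**
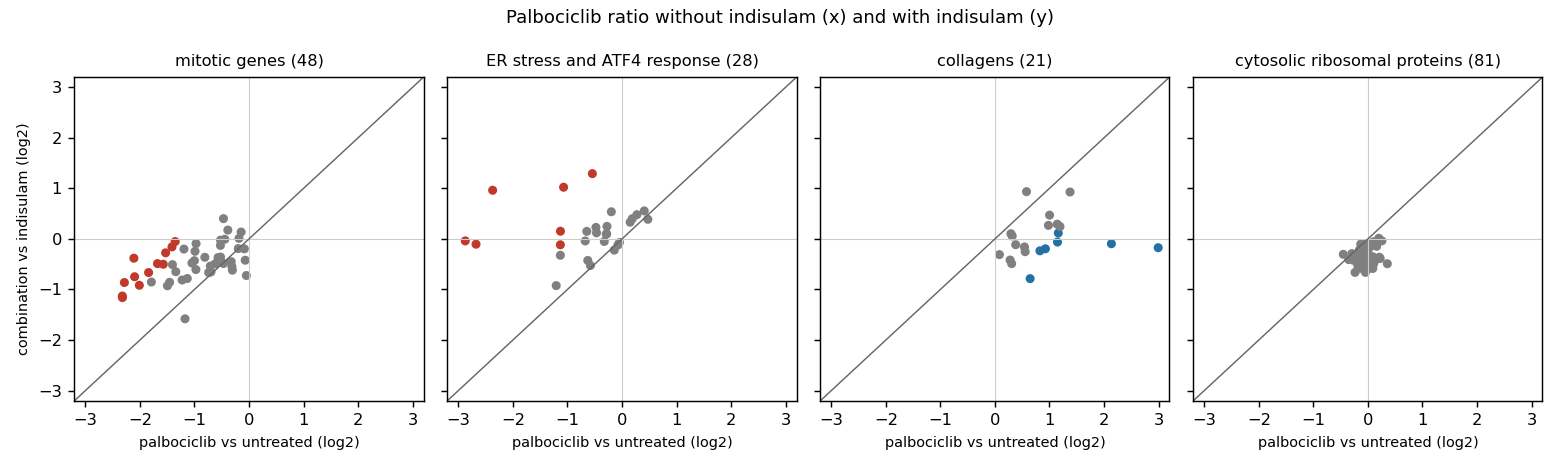
Log2 ratio of palbociclib to untreated (x axis) against log2 ratio of combination to indisulam (y axis) for the genes of 4 lists, 1 point per gene, with the line of equal ratios. Height over the line is the departure. Red and blue points are called above and below the sum. Mitotic genes lie mostly left of 0 and over the line, and ATF4 targets reach from -2.87 on the x axis to near 0 on the y axis. Collagens lie mostly right of 0 and, except for COL28A1, under the line. Ribosomal protein genes form a cluster mostly under it.

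Some large families had small departures that most members shared. The 81 cytosolic ribosomal protein genes had a median of -0.30 (quartiles -0.44 and -0.20), and 79 of 81 were below the median of all genes, with none called. Their median ratio to untreated was -0.04 with palbociclib, 0.05 with indisulam and -0.36 with the combination, so the combination library carried the departure. RPL10A, a member with a large departure, stood at 590, 627, 548 and 365 CPM, a departure of -0.67. Ribosome biogenesis and RNA polymerase I genes (46, median -0.21, 37 below the median of all genes) and the host genes of small nucleolar RNAs (21, median -0.26, 17 below) lay on the same side. The 126 zinc finger genes with ZNF symbols had a median of -0.23 and 101 of them were below the median of all genes.

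On the other side, the 70 nuclear subunits of oxidative phosphorylation had a median of 0.24 (quartiles 0.08 and 0.36), and 63 of 70 were above the median of all genes with none called. Each drug alone was a little lower than untreated for them, at medians of -0.28 and -0.27, and the combination stood at -0.30, close to each of them. COX8A, a subunit of cytochrome c oxidase, had the highest departure of the family at 0.86. Proteasome subunits (41, median 0.25, 30 above) and mitochondrial ribosomal proteins (66, median 0.19, 47 above) lay on the same side, as did all 9 tubulins and all 7 keratins with medians of 0.25 and 0.27. The 13 respiratory chain subunits encoded in mitochondrial DNA had a median of 0.13 with quartiles of -0.19 and 0.26. The share of gene reads from mitochondrial genes was 5.93% untreated, 7.33% with palbociclib, 4.90% with indisulam and 6.55% with the combination, and scaling without these reads gave 119 genes above and 142 below.

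**Figure D4:**
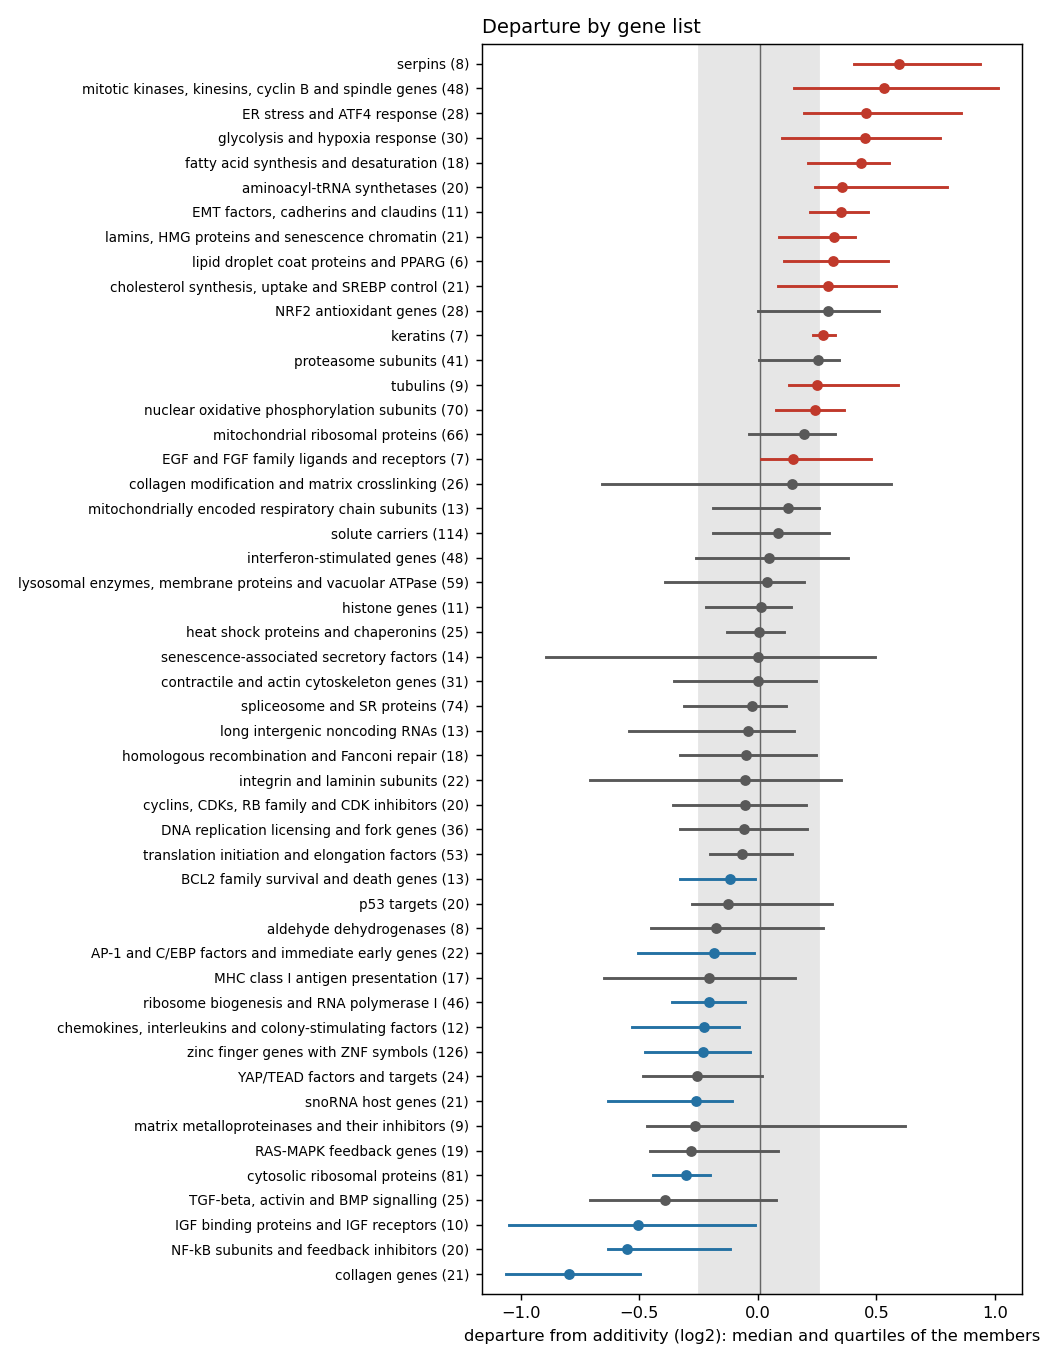
Median departure (points, log2) and quartiles (lines) of each gene list with 5 or more members, with the number of members in brackets. The grey band spans the quartiles of all 8037 genes and the vertical line is their median. Lists drawn in red have both quartiles above that median and lists in blue both below it. On the linear scale the chemokine, interleukin and colony-stimulating factor list turns to 0.02.

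Of the 51 lists with expressed members, 15 had both quartiles above the median of all genes and 10 had both below it. Lists near the median included heat shock proteins and chaperonins (25 genes, 0.00), interferon-stimulated genes (48 genes, 0.05) and lysosomal genes (59 genes, 0.04). HSPA8, a constitutive heat shock protein, was the exception in the first of these, at 992, 2521, 1565 and 1726 CPM, a departure of -1.20. Of the interferon list, IFIT1 (19.4, 12.5, 16.0 and 32.9 CPM, 1.67) and IFIT3 (30.5, 26.9, 64.0 and 134 CPM, 1.25), which encode antiviral proteins, were called above. They make up 4.17% of that list, against 1.47% of all genes. Of the 59 lysosomal genes, whose quartiles were -0.39 and 0.20, 3 were called below (5.08%, against 1.79% of all genes) and none above. The 3 were GPNMB, CTSF and PSAP (1284, 2846, 1753 and 1694 CPM, a departure of -1.20), the last the precursor of the saposins.

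Several of the highest and lowest genes belonged to none of these functions. MT2A, a metal-binding metallothionein and the only one at 20 CPM or more, stood at 182, 61.2, 118 and 195 CPM, a departure of 2.30. THY1, a surface glycoprotein of mesenchymal cells, stood at 78.7, 44.3, 16.2 and 57.0 CPM, a departure of 2.64, and DPP4, a surface peptidase, at 38.5, 37.9, 6.52 and 23.6 CPM, a departure of 1.87. In THY1 and DPP4 indisulam alone was the lowest library. LAPTM5 (314, 58.3, 34.9 and 26.0 CPM, 2.00) and AOC3, an amine oxidase (142, 12.3, 13.4 and 6.89 CPM, 2.57), were lowest in the combination and still above the sum, with each single-drug library several fold under untreated. H19, an imprinted noncoding RNA, stood at 107, 164, 68.3 and 17.5 CPM, a departure of -2.57, and SNED1, a matrix protein, at 65.9, 179, 38.1 and 16.0 CPM, a departure of -2.69. Other genes among the 15 highest were LBH (1.94) and SDC1 (1.90), and among the 15 lowest PAPLN (-2.99) and SBF2-AS1 (-2.18).

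Structure and position were compared with the departure, neither of which the choice of genes used. With the genes split by length of the canonical transcript into 5 equal groups, from the shortest to the longest, the median departure went from 0.12 through 0.04, -0.01 and -0.02 to -0.08. In the shortest group, up to 1951 bases, the 61 ribosomal protein genes stood at -0.31, the 55 nuclear oxidative phosphorylation genes at 0.24 and the other 1490 at 0.13. Genes with over 20 exons had a median of -0.09 and those with 2 to 5 exons 0.06. The 79 long noncoding RNAs had a median of -0.19, with 3 called above and 6 below (1.47% and 1.79% of all genes).

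By chromosome, the median departure ranged from -0.14 on chromosome 19 to 0.22 on chromosome X. Of the 305 X-linked genes, 216 were above the median of all genes, with quartiles of -0.04 and 0.46. Of the 305, 12 were called above (3.93%, against 1.47% of all genes) and 4 below (1.31%, against 1.79%). In windows of 15 Mb along the chromosome, all 11 medians were above that of all genes, from 0.05 to 0.39. The median X-linked ratio to untreated was 0.00 with palbociclib, -0.16 with indisulam and 0.12 with the combination. Of the 435 genes on chromosome 19, 1 was called above (0.23%, against 1.47% of all genes) and 11 below (2.53%, against 1.79%). The 404 of them that are not ZNF genes had a median of -0.13, and ZNF genes stood at -0.28 on chromosome 19 and at -0.19 elsewhere.

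**Figure D5:**
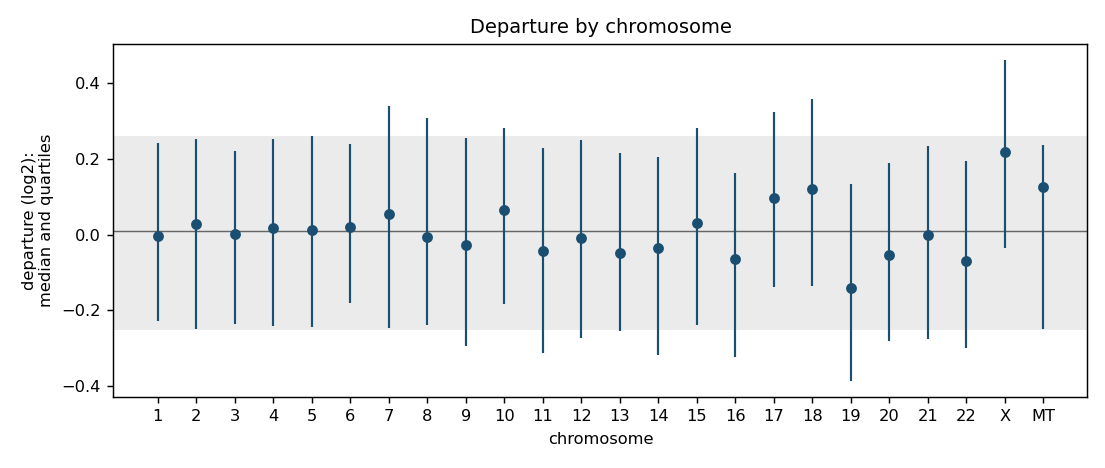
Median departure (points, log2) and quartiles (lines) of the genes on each chromosome, with MT for the mitochondrial genome. The grey band and the line are the quartiles and the median of all 8037 genes. Chromosome X has the highest median, 0.22, and chromosome 19 the lowest, -0.14.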

How the data were processed

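The labels give extraction of RNA with Trizol and stranded mRNA libraries, whereas the methods of the study name a column kit for the extraction. The submitters' processing notes name TopHat2 2.1, HTSeq and GRCh38. The annotation release and the strand setting of counting are not given in the sources used here. The deposited values are raw counts of reads per Ensembl gene, made by the authors without normalization. Reads outside genes were left out, and reads at several places or in overlapping genes were not counted, so near-identical genes are undercounted.

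Counts were scaled by the total of gene reads (12555908 untreated, 12691481 palbociclib, 16712174 indisulam and 14359529 combination) to the mean total, and log2 ratios were formed from scaled counts plus 1. A gene was called at 2-fold or more with a 95% Poisson counting interval excluding 0. Python 3.11.15, pandas 2.3.3 and, for alternative scalings, edgeR 4.0.16 were used. The procedure was run on simulated counts that held Poisson error only. This checks the arithmetic of the intervals and cannot show how the calls behave under variation between cultures. Symbols and positions came from GENCODE 44.

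The 51 gene lists were chosen with earlier results of these data known, as was the departure itself, and 2 more (complement, amino acid genes) were added after departures had been seen, so no list was tested. Named were the 15 highest and 15 lowest called genes with at least 30 reads in the lowest library, the 2 highest and 2 lowest of each list, drug targets, and any member of a list of under 10. Other called members of lists, and genes at which the combination stood apart from all others, were named after their values were seen. Alternatives changed the scaling, pseudocount, expression minimum, fold threshold, scale, and the mean in place of the median of a list. Not every gene that this rule allows is named, and a few items are not reported here.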

Additional observations from a re-analysis of the deposited data

Results flagged for a closer look

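In 7 of the named genes the effect of a drug was called in opposite directions without and with the other drug. These differences rest on 1 library per condition and were not tested. Indisulam was called higher than untreated alone and lower in the presence of palbociclib for CP (log2 ratios of 2.26 and -1.70, a departure of -3.96) and PAPLN, a matrix protein (1.15 and -1.84, a departure of -2.99). It was lower alone and higher with palbociclib for PSAT1 (-1.42 and 1.91, a departure of 3.33) and ASNS (-1.26 and 1.31, a departure of 2.57). Palbociclib was called higher alone and lower in the presence of indisulam for SNED1 (1.44 and -1.24, a departure of -2.69) and FOSB (1.12 and -1.40, a departure of -2.51), and lower alone and higher with indisulam for SLC7A5 (-1.07 and 1.02, a departure of 2.09). None of the genes called above or below the sum did so for both drugs.

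Reads that fell in no annotated gene, outside the mitochondrial genome, are not part of any comparison above. Per 100 gene reads they numbered 0.499 without treatment, 0.545 under palbociclib, 0.608 under indisulam and 0.580 under the combination, so each treated library was above the untreated one. Their log2 departure was -0.19.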

How the results depend on the processing

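The called counts, 118 above and 144 below, moved little with the scaling or the pseudocount. TMM and upper-quartile factors each gave 112 and 158, and median-of-ratios factors 118 and 144, and the median of all genes shifted by at most 0.02 in size. A pseudocount of 10 gave 115 and 130. A minimum mean of 100 CPM gave 27 and 47, with 17 lists in place of 10 having both quartiles below the median of all genes, and a minimum of 1 CPM gave 587 and 561, a spread of 0.467 and 5 such lists. A 1.5-fold threshold gave 564 and 609. The linear scale gave 286 above and 123 below, and on it the chemokine and cytokine list turned to 0.0228, IGFBP5 to 0.45, L1CAM to 0.14, CSF2 to 1.62, GPNMB to 0.0855 and TRAF1 to 0.0445. On that scale another 110 named genes and 25 list medians moved beyond 95% counting error and 122 and 26 stayed within it, so the departures depend on the scale. The mean in place of the median moved 28 lists. Under each other scaling and pseudocount at most 2 named genes and no list moved. No paired analysis was possible because each condition has 1 library, and for the same reason no library could be left out. Depth limited genes under 20 CPM, where the counting error was 0.352 against 0.106.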
